A study of Mus musculus with 12 samples.

Results

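The 5 receptor genes described here, Clec4d, Clec4e, Clec4n, Clec7a and Clec5a, encode C-type lectin receptors of myeloid cells. They were taken from the deposited expression table by their NCBI Gene IDs (17474, 56619, 56620, 56644 and 23845), and all 5 were among its 9374 genes. RNA was sequenced from neutrophils of the blood of female mice. WT mice, and mice of the line Hmgb1ΔMye, were given saline or LPS (lipopolysaccharide, a component of the bacterial outer membrane) at 0.5 mg/kg, and cells were taken 16 h later. Each genotype and treatment had 3 libraries, which gives 4 groups named WT-Saline and WT-LPS for WT, and KO-Saline and KO-LPS for Hmgb1ΔMye. The ΔMye name is one used for deletion in myeloid cells; the sources used here do not give the promoter that drives it, nor the age of the mice. Since the labels leave unsaid whether libraries are from different mice, a p-value here reflects the spread of the sequenced samples, part or all of which may be technical.

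C-type lectin receptors of this kind bind carbohydrate or glycolipid structures of fungi, mycobacteria and damaged cells. Clec7a (dectin-1) binds beta-glucans and signals through an ITAM-like motif in its own tail, whereas Clec4n (dectin-2, mannans), Clec4e (Mincle, mycobacterial cord factor) and Clec4d (MCL) pair with the adaptor encoded by Fcer1g, and Clec5a (MDL-1) pairs with the adaptors encoded by Tyrobp and Hcst. The routes through the Clec7a tail, Fcer1g and Tyrobp activate the kinase Syk. From there they reach the Card9, Bcl10 and Malt1 complex and NF-kB, in neutrophils and macrophages that meet fungi.

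All of the receptor genes lie on chromosome 6 (mm10; gene models of GENCODE M21). Clec4n (123229843 to 123247021, plus strand), Clec4d (123262111 to 123275265, plus strand) and Clec4e (123281789 to 123289870, minus strand) are neighbours, with gaps of 15089 and 6523 bases. Clec7a (129461591 to 129472779, minus strand) lies between Clec1a and Olr1, and Clec5a (40574894 to 40585821, minus strand) lies apart from both. None of them overlaps another annotated gene. GENCODE types Clec7a as a polymorphic pseudogene, a gene that is coding in some strains, and RefSeq types it as protein coding. The sequence just upstream of the annotated start was matched for 4 of the 5 genes (RefSeq, GRCm38.p6), all but Clec4n. It lets promoters of receptors that fell under LPS be set beside that of Clec5a, which did not pass the test. Capitals mark GAGGAA, the core of sites of the myeloid ETS factor PU.1, or its reverse complement TTCCTC; each line runs 5′ to 3′ on the gene's own strand, and the positions are chr6:123261857-123262106 (plus strand), chr6:123289872-123290121, chr6:129472786-129473035 and chr6:40585822-40586055 (minus strand).
Clec4d: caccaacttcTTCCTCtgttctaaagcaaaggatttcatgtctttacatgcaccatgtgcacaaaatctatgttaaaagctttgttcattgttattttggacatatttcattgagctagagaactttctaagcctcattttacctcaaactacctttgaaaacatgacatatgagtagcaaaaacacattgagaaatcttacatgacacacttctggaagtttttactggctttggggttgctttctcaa
Clec4e: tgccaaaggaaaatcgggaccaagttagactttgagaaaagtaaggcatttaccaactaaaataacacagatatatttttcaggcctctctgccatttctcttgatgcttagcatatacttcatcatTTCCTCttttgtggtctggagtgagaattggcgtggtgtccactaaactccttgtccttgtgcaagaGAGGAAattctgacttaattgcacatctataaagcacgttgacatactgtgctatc
Clec7a: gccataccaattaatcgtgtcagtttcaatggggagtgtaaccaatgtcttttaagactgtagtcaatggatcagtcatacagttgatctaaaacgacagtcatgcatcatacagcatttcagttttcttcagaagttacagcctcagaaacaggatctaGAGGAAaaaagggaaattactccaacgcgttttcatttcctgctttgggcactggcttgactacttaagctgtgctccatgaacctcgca
Clec5a: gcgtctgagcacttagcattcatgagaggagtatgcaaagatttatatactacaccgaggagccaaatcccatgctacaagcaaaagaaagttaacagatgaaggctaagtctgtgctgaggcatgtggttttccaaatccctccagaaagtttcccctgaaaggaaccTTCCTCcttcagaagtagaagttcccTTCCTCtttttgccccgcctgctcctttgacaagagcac

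GAGGAA was present on either strand in 4 of 4 of these sequences, and in 23.3% of the 32851 promoter windows of 250 bases in the RefSeq table. It occurred once in Clec4d and Clec7a, and on 2 sites in Clec4e and Clec5a. The C/EBP pattern TTNNGNAA was found in 3 of 4 (Clec4d, Clec4e and Clec5a), and in 36.8% of all windows, without overlapping a GAGGAA match. The AP-1 pattern TGANTCA (6.75% of all windows), the NF-kB motif (3.9%) and the ISRE core (GAAA, any 2 bases and GAAA; 2.98%) were found in 0 of 4. Both strands were searched for each motif, the Clec5a window had 234 bases after 16 inside its annotated transcript were left off, and the motifs were chosen with the sequences in view. A match is a run of letters and not a measured binding site. Clec5a carried GAGGAA, and so did the lowered receptors that had a sequence, Clec4d, Clec4e and Clec7a. Clec4n, also lowered, had no sequence to search.

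The libraries were shallow, with 399702 to 526757 reads in the table. A gene with 0 reads could therefore still lie at up to 5.58 to 8 CPM, here a floor of 3 reads per library, for counting error only. CPM is counts per 1e6 reads of a scaled library size. That size came from the deposited values and was 0.938 to 1.044 times the reads in the table. Of 18 neutrophil markers 16 were measured, and their summed level was 13660 to 18440 CPM in WT-Saline, 29530 to 31250 in WT-LPS, 19190 to 20200 in KO-Saline and 23060 to 32930 in KO-LPS. Hmgb1 averaged 25.9 ± 8.83 (SD, n = 3), 42.7 ± 17.8, 39.7 ± 19.7 and 41.4 ± 29.7 CPM in the same order of groups, so it was not lower in the KO-labelled libraries and does not check the labels. KO-LPS replicate 1 stood apart. Over the 1095 genes called in WT, its displacement from the KO-Saline mean was 13.5% of the WT difference between LPS and saline. For KO-LPS replicates 2 and 3 the displacement was 76.5% and 73.8%. Receptor values and list counts that rest on replicate 1 are given with and without it. Since that replicate was set apart by its small LPS displacement, leaving it out favours LPS calls in KO-labelled libraries. The library kit marks strand but the sources used here do not say how strand was set in the counting. There were 226 long non-coding RNAs with a coding gene opposite, and 164 of them outnumbered it in reads (72.6%, with an exact 95% binomial interval from 66.3% to 78.3%). What this means for the receptor genes, which have no such overlap, was not tested.

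In WT neutrophils LPS lowered 4 of the 5 receptors: Clec7a 19.8-fold, Clec4e 4.16-fold, Clec4n 3.18-fold and Clec4d 2.15-fold. Clec5a did not pass the test. Of all genes, 4.96% were called lower in this comparison (limma, adjusted p under 0.05). The median of the 5 log2 differences was -1.67, against 0.06 over all genes. In bulk samples such as these, fewer cells of a type and less RNA per cell cannot be told apart. The LPS libraries of WT lay below every saline library for 4 of the 5 receptors, a pattern that 14.3% of all genes showed. Without the mean-variance trend in the fit Clec4e alone of the 5 was called in WT (adjusted p = 0.0599 to 0.144 for Clec7a, Clec4d and Clec4n), and with robust moderation Clec7a was not called (0.0581).

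**Figure D1:**
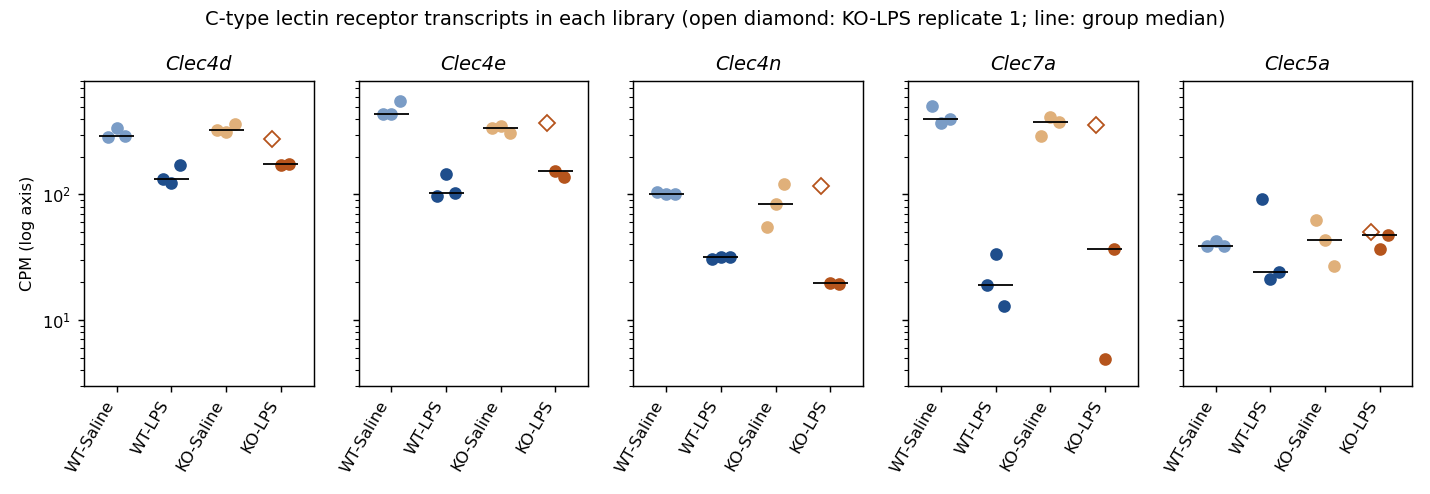
Level of each receptor in the 12 libraries, in CPM on a log axis, by group. Points are libraries, the open diamond is KO-LPS replicate 1 and lines are group medians; Clec7a falls from 372.0 to 505.9 CPM in WT-Saline to 13.01 to 33.7 CPM in WT-LPS, while the Clec5a groups overlap.

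Clec7a, the beta-glucan receptor, was read 209, 176 and 215 times in the WT-Saline libraries and 8, 16 and 7 times in WT-LPS, or 505.9, 372.0 and 400.4 CPM against 19.0, 33.7 and 13.01. Every WT-LPS library was thus far below every WT-Saline library. KO-Saline held 291.3, 416.6 and 374.6 CPM, with 2 of them within the WT-Saline range and replicate 1 below it. In KO-LPS the libraries held 357.5, 4.93 and 36.4 CPM: replicate 1 sat among the saline libraries, replicate 2, with 2 reads, was under its floor of 3 reads, and replicate 3 was just above the highest WT-LPS library. The log2 difference was -4.31 ± 0.72 (SE, adjusted p = 0.000136) in WT and -3.04 ± 0.72 (adjusted p = 0.0154) in KO-labelled libraries. Clec7a was the 1 receptor of 5 called in the KO-labelled comparison, where 1.35% of all genes were called lower. That call depended on single libraries. Without KO-LPS replicate 1 the difference was -4.56 ± 0.45 (adjusted p = 1.17e-09), and without KO-LPS replicate 2 it was -1.63 ± 0.52 (adjusted p = 0.192). The call was also lost without KO-LPS replicate 3 (adjusted p = 0.0831), KO-Saline replicate 2 (0.0819) or KO-Saline replicate 3 (0.0868), and without the mean-variance trend (0.272), with robust moderation (0.255) or with only the groups compared in the fit (0.0948).

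Clec4e, the Mincle receptor for cord factor, had the most reads of the 5 and ranked 680 of 9374 genes by mean CPM. WT-Saline libraries held 438.1, 437.6 and 555.0 CPM (181, 207 and 298 reads) and WT-LPS libraries 97.2, 145.5 and 102.2 CPM (41, 69 and 55 reads). The groups were well separated, and the log2 difference was -2.06 ± 0.30 (adjusted p = 2.43e-05). KO-Saline libraries, at 341.2, 351.5 and 306.5 CPM, were each below every WT-Saline library. KO-LPS libraries held 373.5, 153.0 and 137.2 CPM, so replicate 1 was above all of KO-Saline and the other two were below. The difference in KO-labelled libraries was -0.74 ± 0.30 (adjusted p = 0.188) with that replicate and -1.19 ± 0.25 (adjusted p = 0.000812) without it.

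Clec4d, the partner receptor of Mincle, held 288.0, 336.1 and 294.3 CPM in WT-Saline and 132.7, 124.4 and 171.0 CPM in WT-LPS. It had between 56 and 159 reads in every library, and the WT groups did not overlap. The log2 difference was -1.11 ± 0.25 (adjusted p = 0.00337). KO-Saline held 325.5, 312.4 and 364.8 CPM and KO-LPS 274.8, 172.7 and 175.8 CPM. Clec4d was the only receptor of the 5 whose KO-labelled groups did not overlap, KO-LPS replicate 1 included; 6.87% of all genes had KO-LPS libraries that were all lower. The difference there was -0.71 ± 0.25 (adjusted p = 0.123) with that replicate and -0.93 ± 0.25 (adjusted p = 0.00904) without it.

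Clec4n, the dectin-2 receptor for mannans, was read less often. WT-Saline held 104.1, 101.5 and 100.6 CPM (43, 48 and 54 reads) and WT-LPS 30.8, 31.6 and 31.6 CPM (13, 15 and 17 reads). Within each WT group the libraries hardly differed. That is closer than counting error alone would give at so few reads, so it is no measure of reproducibility. The log2 difference was -1.67 ± 0.50 (adjusted p = 0.0271), and it was between -1.68 and -1.66 with each of the 6 WT libraries left out in turn. The call was nevertheless lost without each of them (adjusted p = 0.0643 to 0.0832). KO-Saline ranged widely, with 55.1, 84.6 and 121.6 CPM, and KO-LPS held 117.4, 19.7 and 19.3 CPM (44, 8 and 9 reads). The KO-labelled difference was -1.18 ± 0.50 (adjusted p = 0.216), and -2.02 ± 0.45 (adjusted p = 0.00136) without KO-LPS replicate 1.

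Clec5a, the receptor that pairs with Tyrobp, showed no called difference under LPS. WT-Saline held 38.7, 42.3 and 39.1 CPM (16, 20 and 21 reads) and WT-LPS 92.4, 21.1 and 24.2 CPM (39, 10 and 13 reads). WT-LPS replicate 1 was above all saline libraries and the other two WT-LPS libraries were below them. KO-Saline held 63.0, 43.4 and 26.8 CPM and KO-LPS 50.7, 37.0 and 47.2 CPM, and these groups overlapped. The WT difference was -0.14 ± 0.52 on the log2 scale, with a 95% interval from -1.20 to 0.92 (adjusted p = 0.913), which contains a change of the size seen for Clec4d in WT. The sign of the Clec5a difference in WT turned when WT-LPS replicate 2 or 3 was left out (0.24 and 0.15).

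**Figure D2:**
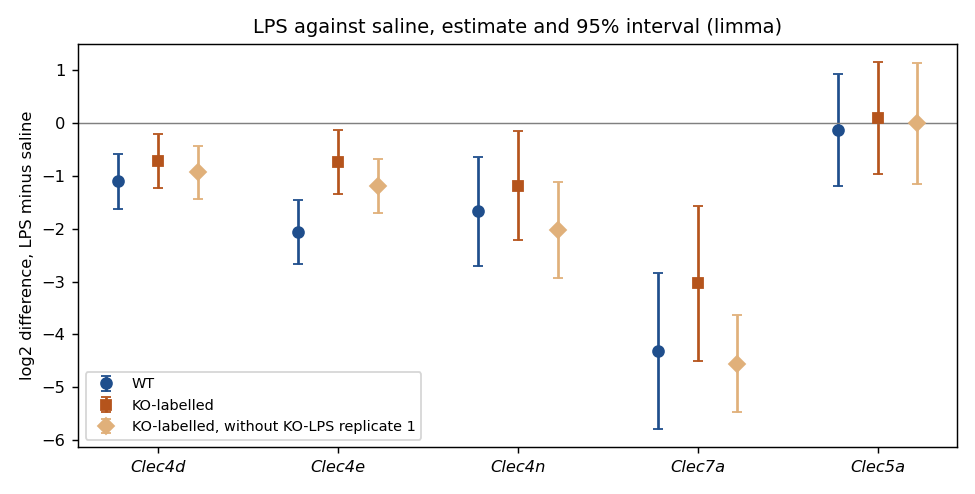
Log2 difference of LPS minus saline for each receptor, with limma's 95% interval, in WT, in KO-labelled libraries, and in KO-labelled libraries without KO-LPS replicate 1. Clec4d, Clec4e, Clec4n and Clec7a lie below 0 in all 3 sets, and Clec5a spans 0 in each.

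Without KO-LPS replicate 1, 4 of the 5 receptors were called lower in the KO-labelled comparison, where 5.5% of all genes then were. That library was set apart by its small LPS response, over genes that include these 4. Leaving it out therefore favours such calls, and over all genes they went from 314 to 1076. Averaged over both genotypes with all 12 libraries, the same 4 were called lower, against 7.03% of all genes: Clec7a by -3.67 ± 0.51 (adjusted p = 6.78e-06), Clec4e by -1.40 ± 0.21 (1.9e-05), Clec4n by -1.43 ± 0.36 (0.00493) and Clec4d by -0.91 ± 0.18 (0.000472). Clec5a was at -0.03 ± 0.37 (0.975). The comparisons in WT and in KO-labelled libraries share no library. Both take their spread per gene from the 1 fit over all 12 libraries, so their p-values are not independent.

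Between the genotypes none of the 5 receptors was called by limma. In saline 0 of 5 passed, also at an unadjusted p under 0.05, against 0.0107% and 6.86% of all genes. In that comparison the receptor with the smallest p was Clec4e, at -0.51 ± 0.30 (95% interval -1.12 to 0.10, adjusted p = 0.795), with every KO-Saline library below every WT-Saline library, as for 6.19% of all genes. Averaged over both treatments the receptor counts were again 0 of 5 and 0 of 5, against 0.0107% and 5.65%. In LPS 0 of 5 and 0% of all genes were called, and 2 of 5 receptors and 5.02% of all genes had an unadjusted p under 0.05. These were Clec4e, at 0.81 ± 0.30 (adjusted p = 0.891), and Clec4d, at 0.52 ± 0.25 (adjusted p = 0.949). Every KO-LPS library was above every WT-LPS library for Clec4d, as for 4.74% of all genes. Without KO-LPS replicate 1 the differences were 0.36 for Clec4e and 0.30 for Clec4d (adjusted p = 0.997 for both), and those of Clec4n and Clec7a turned from 0.19 to -0.65 and from 1.03 to -0.49. The 95% interval of Clec7a under LPS with all libraries ran from -0.45 to 2.50, which is wide.

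Whether the LPS response itself differed between genotypes was tested as an interaction, the KO-labelled difference minus the WT difference, and 0 of 5 receptors and 0% of all genes were called by limma. At an unadjusted p under 0.05 there were 1 of 5 receptors and 5.97% of all genes. The 1 was Clec4e, whose fall was smaller in KO-labelled libraries by 1.32 ± 0.42 on the log2 scale (95% interval 0.46 to 2.18, unadjusted p = 0.00391, adjusted p = 0.677). Without KO-LPS replicate 1 it was 0.87 ± 0.34 (adjusted p = 0.751). The interactions of Clec4d, Clec4n, Clec7a and Clec5a were 0.39 ± 0.36, 0.49 ± 0.71, 1.27 ± 1.02 and 0.23 ± 0.73, with adjusted p from 0.887 to 0.984, and those of Clec4n and Clec7a turned to -0.35 and -0.25 without KO-LPS replicate 1. With voom weights, the other fit run on reads, 0 of 5 receptors were called in the interaction or in any comparison of the genotypes.

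The receptors were compared with each other per exon length, as CPM per kb. The lengths were merged exons of all annotated transcripts, 1599 bases for Clec4d and 4965 for Clec4e. By mean CPM alone Clec4e stood above Clec4d in WT-Saline (476.9 against 306.1). The order, and the shares of a sum, thus depend on the lengths used. In WT-Saline Clec4d was highest, at 191.5 ± 16.3 CPM per kb (SD, n = 3), followed by Clec7a at 161.5 ± 26.7. The libraries of these 2 overlapped. Clec4e (96.1 ± 13.6), Clec4n (71.9 ± 1.28) and Clec5a (10.4 ± 0.51) followed without overlap. In WT-LPS Clec4d was still highest, at 89.3 ± 15.5, and Clec7a was last by mean, at 8.30 ± 4.05. Clec4e (23.2 ± 5.35), Clec4n (22.1 ± 0.33) and Clec5a (11.95 ± 10.5) lay between, and the libraries of each neighbouring pair among these lower 4 overlapped, so only the place of Clec4d in WT-LPS was separated. In KO-Saline the means were 209.0 for Clec4d, 136.8 for Clec7a, 67.1 for Clec4e, 61.4 for Clec4n and 11.6 for Clec5a, the same order as in WT-Saline. There the Clec4e libraries (61.7 to 70.8) lay within the range of Clec4n (38.8 to 85.6), so these 2 were not separated.

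Summed over the receptors, the level per length was 521.8 to 543.5 CPM per kb in WT-Saline, 147.7 to 161.0 in WT-LPS and 437.9 to 524.5 in KO-Saline. KO-LPS replicate 1 held 478.4 and replicates 2 and 3 held 164.2 and 177.3. The makeup of the sum moved too. Clec7a gave 27.0% to 35.3% of it in WT-Saline and 3.06% to 8.66% in WT-LPS, and Clec4d 33.1% to 40.3% and 52.7% to 66.4%. The CPM ratio of Clec7a to Clec4d, which compares both genes within a library, was 1.11 to 1.76 in WT-Saline, 0.0761 to 0.271 in WT-LPS and 0.895 to 1.33 in KO-Saline. It was 1.30 in KO-LPS replicate 1, and 0.0286 and 0.207 in replicates 2 and 3. Clec7a and Clec4d thus fell unequally in every WT-LPS library and in 2 of the 3 KO-LPS libraries.

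**Figure D3:**
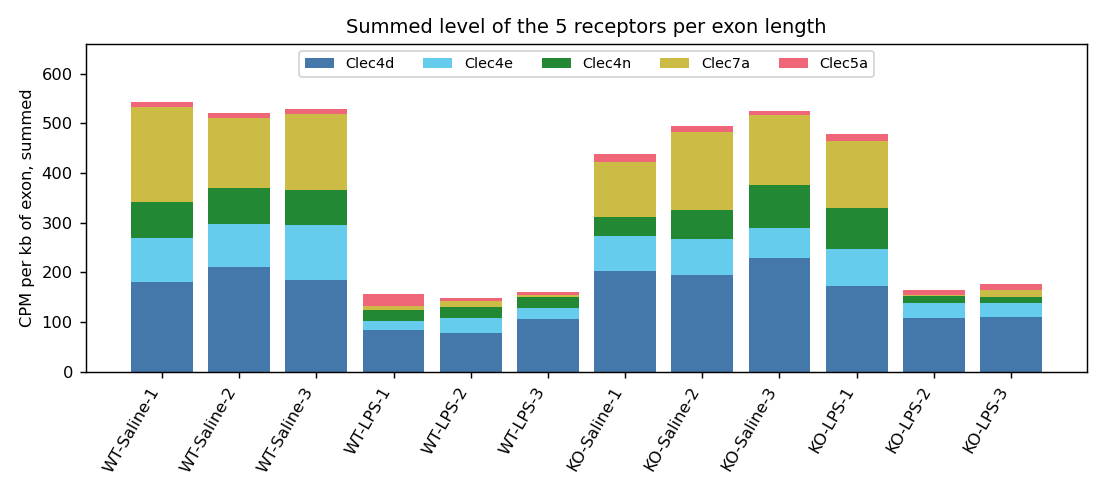
Stacked level of the receptors in each library, in CPM per kb of exon. The 3 WT-LPS libraries and KO-LPS replicates 2 and 3 reach 147.7 to 177.3, and KO-LPS replicate 1, at 478.4, reaches the height of the saline libraries.

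The chromosomal neighbours were examined after the receptor values had been seen. Within 500 kb of Clec7a 12 other genes were measured. In WT 4 of them were called lower and 0 higher, against 4.96% and 6.72% of all genes. These 4 were Clec12b, Clec1b, Clec9a and Clec1a, the C-type lectin genes next to Clec7a on 1 side. In KO-labelled libraries 0 of the 12 were called by limma in either direction, 6 had an unadjusted p under 0.05 (17.2% of all genes did) and 1 was called with voom weights. With KO-LPS replicate 1 left out, 7 of the 12 were called lower there, Clec12a, Clec12b, Clec9a and Clec1a among them, and 1 higher, Clec2g. Of all genes 5.5% were then called lower and 5.97% higher. Clec1a, the direct neighbour, had 74 reads over the WT-Saline libraries and 3 over WT-LPS, a ratio of 0.0402 per library size (95% counting interval 0.00811 to 0.122). Clec9a, a receptor of dendritic cells for dead cells, went from 174 to 0 reads, at least 18.8-fold lower, and Clec1b, the platelet receptor CLEC-2, from 32 to 0, at least 3.45-fold lower, both against a floor of 3 reads per library. The annotated spans of Clec9a and Clec1b overlap on the same strand, so their reads may not be separable. Clec12b was at -2.68 ± 0.87 (adjusted p = 0.0406), and that call was lost without each of the 6 WT or 3 KO-Saline libraries (adjusted p up to 0.147). In KO-labelled libraries Clec1a held 47 reads in saline and 23 in LPS, of which 19, 4 and 0 were in KO-LPS replicates 1, 2 and 3. Clec9a held 62 and 25, the latter as 21, 2 and 2, so most LPS reads of both genes came from replicate 1. Clec12a, on the same side beyond Clec12b (-1.71 ± 0.68, adjusted p = 0.106), and Olr1, on the other side, were not called in WT.

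**Figure D4:**
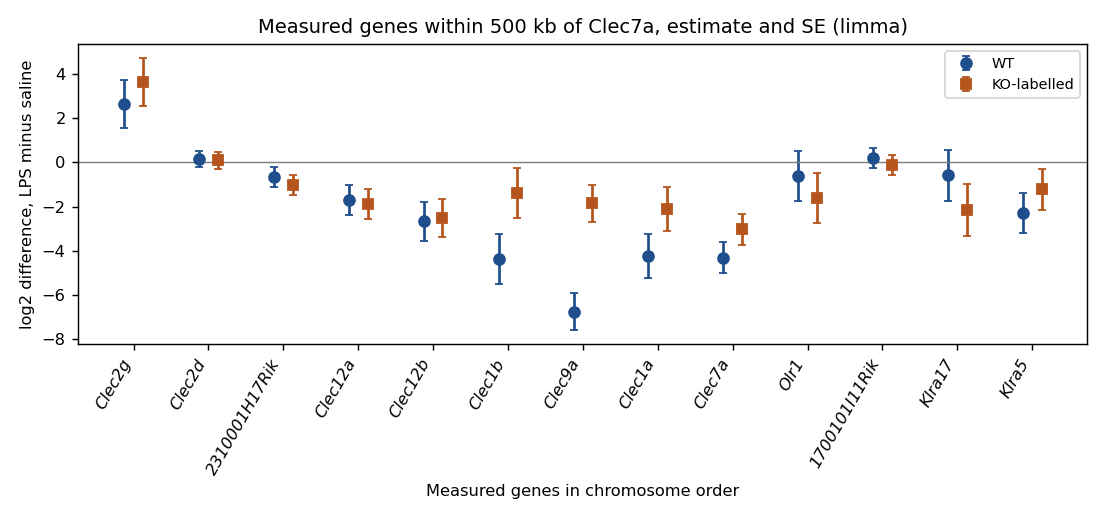
Log2 difference of LPS minus saline, with its SE from limma, for the 13 measured genes within 500 kb of Clec7a in chromosome order, in WT and KO-labelled libraries. In WT the estimates of Clec12b, Clec1b, Clec9a, Clec1a and Clec7a were called lower, and Clec2d, at 0.17, and the genes beyond Clec7a were not called.

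Around the Clec4n, Clec4d and Clec4e trio, 7 other genes were measured within 500 kb and 0 were called in WT by limma or with voom weights (3 at an unadjusted p under 0.05, as were 24.4% of all genes). In KO-labelled libraries 1, Foxj2, was called lower by limma (-1.49 ± 0.40, adjusted p = 0.0352), against 1.35% of all genes, and 0 with voom weights. Exons of Foxj2 overlap Gm26826 on the other strand. Foxj2 was called lower and Clec4a1 higher in KO-labelled libraries without KO-LPS replicate 1, against 5.5% and 5.97% of all genes. The related genes Clec4a1 (1.61 ± 0.76, adjusted p = 0.184), Clec4a3 (0.30 ± 0.72, 0.854) and Clec4a2 (1.56 ± 0.56, 0.0728) had estimates above 0 in WT, unlike the trio, but none passed the test. Clec4a2 encodes an inhibitory receptor. Near Clec5a 4 other genes were measured and 0 were called by limma or with voom weights in either comparison (1 in WT and 0 in KO-labelled libraries at an unadjusted p under 0.05), nor were any without KO-LPS replicate 1.

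Of the adaptors and proximal kinases that serve these receptors, 18 of 20 were measured. In WT 5 rose and 0 fell (6.72% of all genes rose), with a list median of 0.02 against 0.06 over all genes. Fcer1g, the adaptor of Clec4d, Clec4e and Clec4n, rose from 269.6 ± 35.4 to 595.9 ± 8.93 CPM (1.15 ± 0.23, adjusted p = 0.000842), while those 3 receptors fell. The adaptors Sh3bp2 (1.59 ± 0.40, adjusted p = 0.0082) and Pik3ap1 (1.31 ± 0.40, 0.0292) also rose, as did the kinase gene Lyn (0.70 ± 0.21, 0.0286). Sh3bp2 lost its call without WT-Saline replicate 1, Pik3ap1 without WT-Saline 2 or 3 or WT-LPS 1 or 3, and Lyn without WT-Saline 1 or 2 or any WT-LPS library (adjusted p up to 0.168). Tyrobp, the adaptor of Clec5a, went from 429.4 ± 92.5 to 270.2 ± 36.7 CPM (-0.65 ± 0.26, adjusted p = 0.108), Hcst was at -0.75 ± 0.27 (0.0686), and Syk from 713.5 ± 111.2 to 496.6 ± 81.3 CPM (-0.52 ± 0.23, 0.151). In the average over genotypes 6 of the 18 were called higher and 3 lower, against 9.86% and 7.03% of all genes, and the 3 lower were Tyrobp, Hcst and Syk (adjusted p = 0.0233, 0.015 and 0.0201). In KO-labelled libraries 0 of 18 were called by limma or with voom weights (7 at an unadjusted p under 0.05, against 17.2% of all genes), where Fcer1g was at 0.64 ± 0.23 (adjusted p = 0.124). Without KO-LPS replicate 1, 4 were called higher there, Fcer1g, Sh3bp2 and Vav3 among them, and 3 lower, again Tyrobp, Hcst and Syk, against 5.97% and 5.5% of all genes.

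Further down the pathway, 18 of 19 genes of the Card9 complex and NF-kB branch were measured, and 1 rose and 1 fell in WT, 2 of 18 against 11.7% of all genes called. Card9 (-0.29, adjusted p = 0.649), Bcl10 (-0.04, 0.968) and Malt1 (-0.27, 0.844) were not called. Traf6, a ubiquitin ligase, fell from 128.1 ± 46.6 to 20.9 ± 15.9 CPM (-2.79 ± 0.61, adjusted p = 0.00243), and Nfatc3, whose exons overlap Esrp2 on the other strand, rose by 1.25 ± 0.37 (0.0256), a call lost without WT-Saline 1 or 2 or any WT-LPS library (adjusted p up to 0.106). In KO-labelled libraries 0 of 18 were called by limma or with voom weights (2 at an unadjusted p under 0.05, against 17.2% of all genes). Without KO-LPS replicate 1, 0 were higher and 1, Nfatc1, was lower there, against 5.97% and 5.5% of all genes. Of 18 negative regulators 17 were measured, and 2 rose in WT and 2 in KO-labelled libraries, against 6.72% and 1.99% of all genes. Without KO-LPS replicate 1, 5 rose and 2 fell in KO-labelled libraries, again against 5.97% and 5.5%. Dok2, an adaptor that limits kinase signalling, had 0 reads in all saline libraries and 44 over WT-LPS, at least 4.78-fold higher, and 20 over KO-LPS, at least 2.18-fold higher. Dok3 rose by 0.89 ± 0.29 in WT (adjusted p = 0.0413), a call lost without WT-Saline 2 or 3, any WT-LPS library or KO-Saline 2, without the mean-variance trend, and with libraries centred on their median or quantile normalized (adjusted p up to 0.215). Ptpn11, a phosphatase gene, rose in KO-labelled libraries (2.02 ± 0.54, adjusted p = 0.0339) and was at 1.25 ± 0.54 (0.146) in WT. The KO-labelled calls of Dok2 and Ptpn11 were lost without any KO-Saline library or KO-LPS 2 or 3, and that of Ptpn11 also without WT-LPS 3 (adjusted p up to 0.149 and 0.291).

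**Figure D5:**
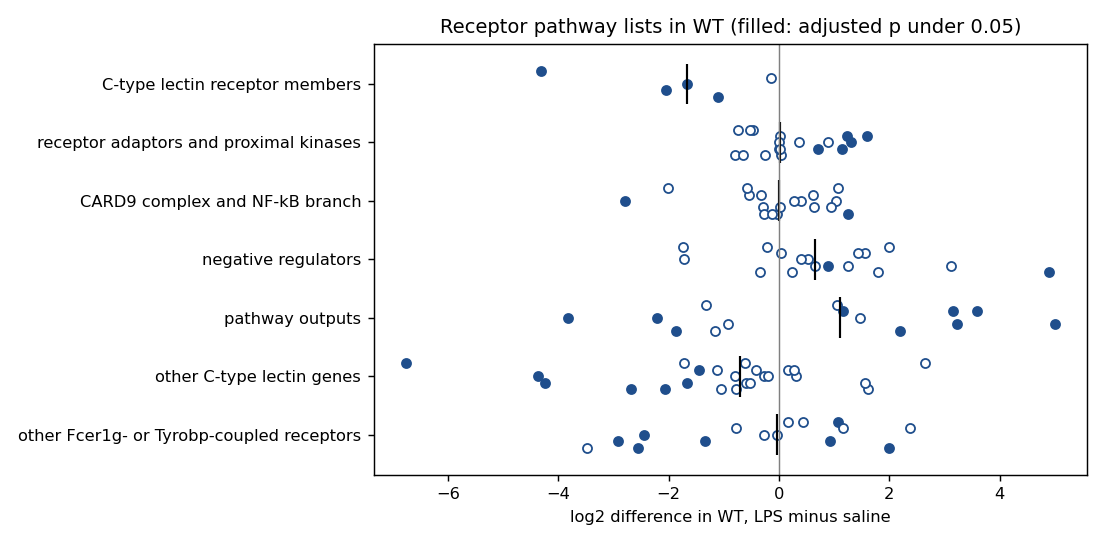
Log2 difference in WT for every measured gene of the receptor, adaptor, signalling, output and related receptor lists; filled points have an adjusted p under 0.05 and black lines are list medians. The 5 receptors and the other C-type lectin genes have medians of -1.67 and -0.70, and the adaptors and kinases 0.02.

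Among 20 genes that these receptors are known to induce, 14 were measured, with a list median of 1.1 in WT against 0.06 over all genes. In WT 6 rose and 3 fell, against 6.72% and 4.96% of all genes. In KO-labelled libraries 2 rose and 1 fell, against 1.99% and 1.35%. Without KO-LPS replicate 1, 5 rose and 3 fell there, against 5.97% and 5.5%. Il10, an anti-inflammatory cytokine gene, had 5 reads over WT-Saline and 199 over WT-LPS (5.002 ± 1.05, adjusted p = 0.00154), of which 129, 24 and 46 were in replicates 1, 2 and 3, and Nos2, the inducible nitric oxide synthase, 14 and 145 (3.22 ± 0.81, 0.00777). Nos2 also rose in KO-labelled libraries (5.11 ± 0.81, adjusted p = 0.000845). The chemokine gene Cxcl2 rose by 3.59 ± 1.06 (0.0245) and Ptgs2, a cyclooxygenase gene, fell by 3.83 ± 1.16 on the log2 scale (0.0277). Cxcl2 lost its call without WT-Saline 2 or 3 or WT-LPS 1 or 2, and Ptgs2 without WT-Saline 1 or 2 or WT-LPS 2 or 3 (adjusted p up to 0.159 and 0.169). LPS acts through Toll-like receptor 4, and these genes respond to that receptor as well.

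Of 61 other C-type lectin genes 24 were measured. In WT 7 fell and 0 rose, against 4.96% and 6.72% of all genes, and the list median was -0.70. Those that fell were Clec9a, Clec1b, Clec1a and Clec12b, given above, and Cd302 (-1.66 ± 0.30, adjusted p = 0.000294), Sele (E-selectin, -2.07 ± 0.26, 3.8e-06) and Thbd (thrombomodulin, -1.45 ± 0.42, 0.0223, lost without WT-Saline 1 or 2 or WT-LPS 2). In KO-labelled libraries 1 fell, Sele (-0.92 ± 0.26, adjusted p = 0.0445), and 0 rose, against 1.35% and 1.99% of all genes. That call was lost without 10 of the 12 libraries left out singly, all but WT-LPS 3 and KO-LPS 1. The list median was -0.47. In KO-labelled libraries without KO-LPS replicate 1, 7 fell and 2 rose, against 5.5% and 5.97% of all genes. Of 31 other receptors that pair with Fcer1g or Tyrobp, 15 were measured. Of these 3 rose and 4 fell in WT, and 1 rose and 1 fell in KO-labelled libraries. Without KO-LPS replicate 1, 1 rose and 3 fell there, and the same shares of all genes apply to each comparison. Fcgr4, an Fc receptor that needs Fcer1g, rose from 66.9 ± 23.1 to 267.5 ± 82.5 CPM in WT (2.002 ± 0.35, adjusted p = 0.000207) and in KO-labelled libraries (1.67 ± 0.35, 0.00677, lost without KO-Saline 2 or KO-LPS 2 or 3). Cd300ld fell from 282.4 ± 68.6 to 51.9 ± 19.7 CPM (-2.46 ± 0.37, adjusted p = 4.31e-05). Sirpb1b, whose exons overlap Gm37468 on the other strand, fell by 2.92 ± 0.55 on the log2 scale (0.00054), and Cd300c2 fell by 2.55 ± 0.69 (0.0137, lost without WT-Saline 2 or 3 or WT-LPS 1 or 3). Over these lists and the cell type markers below, the receptors aside, 55 calls were made in WT, of which 36 held with each library left out in turn and 19 under every alternative. In KO-labelled libraries the numbers were 18, 3 and 0. The WT calls of Fcer1g, Traf6, Il10, Nos2, Clec1a and Cd302 held with each library left out. They were lost without the mean-variance trend (limma adjusted p = 0.0541 to 0.0877).

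Markers of other blood cells differed between the groups as well, and not all in 1 direction. For the counts below, 6.72% of all genes rose and 4.96% fell in WT. The shares were 1.99% and 1.35% in KO-labelled libraries, and 5.97% and 5.5% there without KO-LPS replicate 1. At an unadjusted p under 0.05 they were 24.4% in WT and 17.2% in KO-labelled libraries. The share with voom weights is not given here. The summed level of the 9 of 13 measured dendritic cell markers was 273.5 to 378.4 CPM in WT-Saline, 63.2 to 106.7 in WT-LPS, 194.2 to 243.0 in KO-Saline and 34.5 to 192.1 in KO-LPS, with replicate 1 highest; 0 rose and 2 (Clec9a and Itgax) fell in WT, and Clec9a and H2-Aa were at 0 reads in WT-LPS. Clec9a (119.0 to 0 CPM) and Itgax (138.6 to 13.5 CPM) carried most of that fall, the list median was -0.24, and Bst2, Zbtb46, Cd74 and H2-Ab1 had estimates above 0 without passing the test. The 4 of 9 measured platelet markers summed to 537.4 to 804.6, 180.1 to 282.5, 692.1 to 895.0 and 244.3 to 522.9 CPM in the same order, again with replicate 1 highest in KO-LPS. In WT 3 fell, Gp1ba, Gp9 and Clec1b. Over the 12 libraries Gp1ba averaged 453.3 CPM and Clec1b 9.71. The Gp9 call was lost without 8 of the 12 libraries left out singly (adjusted p up to 0.157). The 10 of 16 measured monocyte and macrophage markers went the other way, with 499.2 to 660.8 CPM in WT-Saline, 999.6 to 1413 in WT-LPS, 516.4 to 576.4 in KO-Saline and 530.9 to 1091 in KO-LPS, where replicate 1 was lowest; 3 rose (Ly6c2, Nr4a1 and Spn) and 2 fell (Csf1r and Apoe) in WT, and Fcgr1 was at 0 in all saline libraries. Of the 16 neutrophil markers 12 rose and 1, Csf3r, fell in WT. For B cells 1 of 6 markers was measured and rose (Cd79a), for T and NK cells 3 of 10 and 1 fell (Tcf7), and for erythroid cells and for eosinophils, basophils and mast cells 1 of 6 and 1 of 9, with 0 called in WT by limma, by voom weights or at an unadjusted p under 0.05. In KO-labelled libraries 5 neutrophil markers rose and 1 fell, 1 monocyte marker rose and 1 fell, 0 dendritic cell markers were called (2 at an unadjusted p under 0.05, 1 with voom weights) and 1 platelet marker fell. These counts without KO-LPS replicate 1 were 7 and 1, 3 and 2, 0 and 2, and 0 and 2, as risen and fallen. Monocytes and dendritic cells also express several of the 5 receptors. The part of these cells in the receptor values was not tested.

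The genes whose log2 values were most like each receptor's were found by Pearson r over the 12 libraries among 4395 genes of at least median level. For Clec7a they were Kansl3 (r = 0.987), Myadm (0.983) and Cerkl (0.976), for Clec4e Rbks (0.978), Prr5l (0.975) and Rab11fip4os2 (0.974), for Clec4d Ssh2 (0.979), Gp1ba (0.976) and Tmem43 (0.971), and for Clec4n Bcl9l (0.970), Nlrp3 (0.964) and Focad (0.960). Each of these 12 genes was called lower in WT under LPS, against 4.96% of all genes. They were picked for likeness to receptors called lower, over the same libraries. That outcome therefore follows largely from the choice and is no separate result. For Clec5a the best were Cpne1 (0.868), Slain2 (0.844) and Traf7 (0.775), and none of these 3 was called. Exons of Prr5l, Bcl9l, Focad, Cerkl, Slain2 and Traf7 overlap a gene on the other strand. The points share treatment: the libraries form a saline-like and an LPS set, and r over all 12 includes the step between these sets.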

How the data were processed

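Per the labels' protocols, a miRNeasy micro kit gave the RNA and a Tecan Universal Plus kit for total RNA, used with probes for mouse, gave the libraries. The authors deposited log2 expression values for 9374 genes by NCBI Gene ID; the build was mm10, per the submitters' processing notes, and aligner, counter, annotation and gene filter were not given in the sources used here. RefSeq symbols were found for 9372 IDs. Whole reads came back within 0.0001 for every value when the values were read as log2 CPM with 0.5 reads added, and these reads gave depths, CPM and floors.

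The deposited log2 values were tested with limma 3.58.1 (R 4.3.3): 4 group means over 12 libraries, mean-variance trend, two-sided, Benjamini-Hochberg adjustment over all genes within a comparison, called at an adjusted p under 0.05. Count models were not used. Differences are on that log2 scale, which understates changes of low genes, and ± after one is its SE. CPM means carry the SD. Exon lengths are merged exons of GENCODE M21.

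The members and lists were chosen with earlier results of these data known. Named genes were the 5 receptors, up to 4 called genes per pathway list by size of the WT difference, and the 3 genes most like each receptor, passing over predicted genes; 1 gene that the rule took is not reported here. Lyn, Tyrobp, Hcst, Syk, Card9, Bcl10, Malt1, Cd302, Sele, Thbd, Foxj2 and the other neighbours and markers were named after their values were seen. Alternatives were other spreads, weights, scalings, added reads, filters, a replicate block and each library left out; list counts without KO-LPS replicate 1 were added after seeing the data.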

Additional observations from a re-analysis of the deposited data

How the results depend on the processing

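Genotype and interaction calls of the 5 receptors stayed at 0 of 5 under each alternative run. Under LPS, without the mean-variance trend 1 of 5 receptors was called in WT (4 with it), 0 in KO-labelled libraries and 3 in the average; with robust moderation, or with only the groups compared in the fit, 0 were called in KO-labelled libraries (1 otherwise), and robust moderation left 3 in WT. The cause was not tested. The calls lost in WT were those of Clec4d, Clec4n and Clec7a without the trend (adjusted p = 0.0672, 0.144 and 0.0599) and Clec7a with robust moderation (0.0581). Leaving out 1 library gave 3 to 4 calls in WT, 0 to 4 in KO-labelled libraries and 4 in the average. Over all genes, calls in WT were 1095, and 363 without the trend; in KO-labelled libraries 314, and 16 without the trend, 82 with only the groups compared, and 32 to 1076 with 1 library left out (32 without KO-LPS 2, 47 without KO-LPS 3, 1076 without KO-LPS 1); in the average 1583, and 944 without the trend. In KO-labelled against WT saline libraries 1 gene was called, and 0 to 31 under the alternatives.

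Of the values for single receptors 744 kept direction and side of the threshold, 18 lost a call, 3 gained one and 25 changed sign, each of these 25 uncalled. Sign changes outside left-out libraries were Clec5a in KO-labelled libraries with each library centred on its median (-0.01, otherwise 0.09) and Clec4n between genotypes averaged over treatments with 5 reads added (0.01, otherwise -0.05). With 1 library left out, Clec5a ranged from -0.80 to 0.24 for LPS in WT, -0.22 to 0.38 in KO-labelled libraries and -0.36 to 0.16 in the average, and from -0.22 to 0.38 between genotypes in saline, -0.082 to 0.96 in LPS, -0.007 to 0.51 in the average and -0.15 to 0.89 in the interaction. Clec4n ranged from -0.65 to 0.62 between genotypes in LPS, -0.47 to 0.16 in the average and -0.35 to 0.92 in the interaction; Clec7a from -0.49 to 2.44, -0.37 to 1.10 and -0.25 to 2.68; and Clec4e from -0.077 to 0.28 in the average.

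With the replicate block 4, 1 and 4 receptors were called for LPS in WT, in KO-labelled libraries and in the average, as without it, and 0 between genotypes. All-gene calls were 1086, 336 and 1563. Of the list and marker genes called for LPS, Dok3, Tnf and Gp9 lost their call in WT. Same-numbered libraries of different groups did not deviate together over all genes (18 pairs, r from -0.07 to 0.04). The median gene had 11.33 reads per library, so counting noise could hide a shared source, and a pairing is not excluded. The filter of 1 in at least 3 libraries removed no gene and gave the same calls as none. Depth limits Clec4n and Clec5a, with 8 to 54 reads in a library, and Clec7a under LPS, with 2 to 17 reads outside KO-LPS replicate 1.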
